A study of Mus musculus with 6 samples.

Results

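The heat-shock chaperones described here are 10 genes of the HSP70, HSP110, HSP40, HSP90 and HSP60 families, taken by symbol from a table of 21606 genes counted in marrow cells of male and female mice. All 10 were found, and all 10 passed the filter on low counts with 8460 genes in all. The set was chosen by family and symbol, with the male to female fold changes of these same libraries already known, so their differences between the sexes are given as a description and support nothing. By textbook knowledge 4 were treated as stress-inducible (Hspa1a, Hspa1b, Dnajb1 and Hsph1) and 6 as constitutive (Hspa8, Dnaja1, Hsp90aa1, Hsp90ab1, Hspd1 and Hspe1). Hsp90aa1 can also be induced, from a high basal level. The split is a label only: induction of the members was not measured here, and the constitutive label does not mean that a gene cannot be induced.

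RNA came from bone marrow cells of wild-type C57BL/6 mice that had high activity of aldehyde dehydrogenase (ALDHbr cells), a property used to sort progenitor-rich marrow. There were 3 libraries of female and 3 of male mice. The labels used here name no treatment and no age, and do not say whether a library came from 1 animal or several. The p-values of the gene lists below therefore measure only the spread between these libraries, which may be technical. Libraries were made by BRB-seq, a bulk method that barcodes each sample at an oligo-dT primer, pools the samples and reads the 3′ ends of transcripts. In such bulk RNA, a change in the number of cells of a type and a change in RNA per cell cannot be told apart.

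Heat-shock chaperones bind unfolded proteins. HSP70 proteins hold exposed stretches of a client and release them in a cycle of ATP hydrolysis, which J-domain proteins of the HSP40 family start and HSP110 proteins help to reset by exchanging the nucleotide. HSP90 takes over clients close to their folded state, among them kinases and steroid receptors, while HSP60 with its lid HSP10 folds proteins inside mitochondria. Inducible members are switched on by heat-shock factor 1, which binds repeats of GAA and TTC (heat-shock elements) in promoters when unfolded proteins accumulate. Their transcripts can also be raised by heat, dissociation or sorting of cells.

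The promoters of the inducible HSP70 genes are shown because both copies carry almost the same control sequence. RefSeq windows (GRCm38.p6), each reaching from 250 bases before a gene's start to 50 after, were at hand for 7 of the 10 members. The windows of Hspa1a and Hspa1b shared 296 of 300 bases. The 250 bases before each start are printed 5′ to 3′ on the gene's strand, from chr17:34972157-34972406 for Hspa1a and chr17:34959239-34959488 for Hspa1b, both on the minus strand, with capitals marking the match to a heat-shock element of 2 units, which is GAA and TTC in either order with any 2 bases between them.
Hspa1a: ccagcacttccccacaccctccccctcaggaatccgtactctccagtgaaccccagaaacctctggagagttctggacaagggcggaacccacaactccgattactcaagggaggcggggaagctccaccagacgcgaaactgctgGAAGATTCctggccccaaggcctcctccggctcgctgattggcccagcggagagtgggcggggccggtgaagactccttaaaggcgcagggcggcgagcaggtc
Hspa1b: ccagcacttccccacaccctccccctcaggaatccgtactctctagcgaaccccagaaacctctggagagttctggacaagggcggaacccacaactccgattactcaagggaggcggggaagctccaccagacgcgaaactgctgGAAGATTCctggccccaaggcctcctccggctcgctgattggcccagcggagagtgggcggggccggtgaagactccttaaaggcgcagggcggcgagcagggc
The 4 differences over the whole windows, counted from 1 at the first base of the window with the base of Hspa1a first, were C44T, T47C, T249G and C276T. None of them lay in the element, which began 104 bases before the start in both genes.

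A longer element lay where the HSP60 gene Hspd1 and the HSP10 gene Hspe1 meet head to head on chromosome 1, before the start of Hspe1 and inside the annotated span of Hspd1, which reaches past the start of Hspe1. The stretch below (chr1:55088053-55088082, plus strand) comes from the window of Hspe1, and its 18 bases in capitals also lie in a window of Hspd1, read there on the other strand.
Hspe1: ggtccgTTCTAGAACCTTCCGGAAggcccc
The capitals began 89 bases before the start of Hspe1, and at 144 bases before the start in that window of Hspd1. They hold overlapping matches to an element of 3 units, which alternates TTC, GAA and TTC, or GAA, TTC and GAA, with any 2 bases between units and was searched on both strands. Of the 7 members with a window, 3 held the 3-unit element (Hspd1, Hspe1 and Hsph1), against 0.662% of 27025 genes with windows. In Hsph1 the match, TTCTGGAAAGTTC, lay after the start and not before it. The 2-unit element, of which each 3-unit match also contains copies, was found in 6 of the 7 members (all but Dnajb1) and in 17.0% of all genes. So by exact match the windows of Hspa1a and Hspa1b held only the shorter element, and those of Dnajb1 held neither. Elements with an imperfect unit were not searched for. In both HSP70 windows the bases just before the capitals read gaa, ac, tgc and tg, with tgc where a further unit would be ttc. For Dnajb1, the window from 83608298 lies inside the gene, which starts at 83608193. Exact 3-unit matches lay in Hsph1, treated as inducible, and in Hspd1 and Hspe1, treated as constitutive. Hspa8, Hsp90aa1 and Hsp90ab1 had no window, so whether the element follows the split cannot be told. Among the 7 members with a window, an exact 3-unit match lay before a start only in Hspd1 and Hspe1. A match is a run of letters, not a measured binding site.

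In the genome, Hspa1b (chromosome 17, 34956436 to 34959238) and Hspa1a (chromosome 17, 34969190 to 34972156) lay 9.95 kb apart in GENCODE M21 (GRCm38). They were the 2 members of the 10 whose transcripts have a single exon, a structure that holds for 4.02% of tested genes. The main transcripts of the other members had from 3 exons (Dnajb1) to 18 (Hsph1). The coding sequences of Hspa1a and Hspa1b were 99.4% identical, whereas those of Hspa1a and Hspa8 were 73.9% identical and those of Hsp90aa1 and Hsp90ab1 75.6%. The last 300 bases of the Hspa1a and Hspa1b transcripts, the part nearest to where these libraries are primed, were 49.4% identical in a global alignment. Reads from the coding part could still be split between the copies, so the sum of both is given beside each. The span of Hspa1a also overlaps another annotated gene, Gm20481, while that of Hspa1b overlaps no other gene. The effect of this overlap on the counts of Hspa1a was not tested.

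Each library had between 679724 and 1475224 counts, on average 1.65 times as many in females. Xist, the X-inactivation RNA, had 225 or more counts in each female library and at most 2 in each male one, and the Y-linked Ddx3y was counted only in the male libraries. Progenitor markers (Kit, Cd34, Mpo and 7 others) summed to between 15290 and 16010 CPM in females and between 13720 and 14730 CPM in males, a gene's count relative to all counts of the tested genes in its library, at library sizes scaled by TMM. The 8 markers of mature neutrophils summed to between 19.3 and 36.6 CPM. Male replicate 1 resembled the female libraries (correlation of log2 CPM 0.960 to 0.965) as much as the other males (0.945 and 0.9615). Male replicate 2 had the fewest counts and the highest shares of ribosomal protein (17.7%, against 12.6% to 15.9% elsewhere) and mitochondrially encoded transcripts (7.61%, against 3.59% to 6.27%). Over all tested genes, 36 were higher in males and 13 lower at an adjusted p of 0.05 (edgeR, quasi-likelihood) (29 and 23 when scaled by library size only).

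The inducible HSP70 transcripts were more than 3 times as abundant in the male libraries. Hspa1b, the more abundant copy, had 92.6, 89.4 and 69.3 CPM in female replicates 1 to 3 and 361, 216 and 228 CPM in male replicates 1 to 3. Hspa1a, which encodes almost the same protein, had 47.5, 45.4 and 24.6 CPM in females and 168, 136 and 101 CPM in males. Every male library lay above every female one for both copies, and male replicate 1 was the highest. The log2 fold change, male minus female, was 1.69 ± 0.17 (SE) for Hspa1b and 1.78 ± 0.20 for Hspa1a.

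Summed as 1 gene, Hspa1a and Hspa1b had 140, 135 and 93.9 CPM in females and 529, 353 and 329 CPM in males. The mean was 123 ± 25.3 CPM (SD, n = 3) in females and 403 ± 109 CPM in males, a 3.29-fold difference (log2 fold change 1.72 ± 0.17). Without male replicate 1, the highest library, the log2 fold change was 1.47, and over the other single libraries left out it reached 1.85. In raw counts, males had 939 and females 495, although the male libraries together held only 0.605 times as many counts of all genes. The libraries of a sex spread by a coefficient of variation of 20.6% in females and 27.1% in males, where counting error alone would give 7.91% and 5.87%.

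The share of Hspa1a in the summed counts of both copies was 33.9%, 33.7% and 26.2% in females and 31.7%, 38.7% and 30.8% in males. The exact 95% binomial intervals, which cover counting error only, were widest in female replicate 3 (18.7% to 34.96% of 122 counts). The intervals of all 6 libraries overlapped. Overlap of intervals does not show that the balance of the copies was equal, and a difference in it was not tested.

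**Figure D1:**
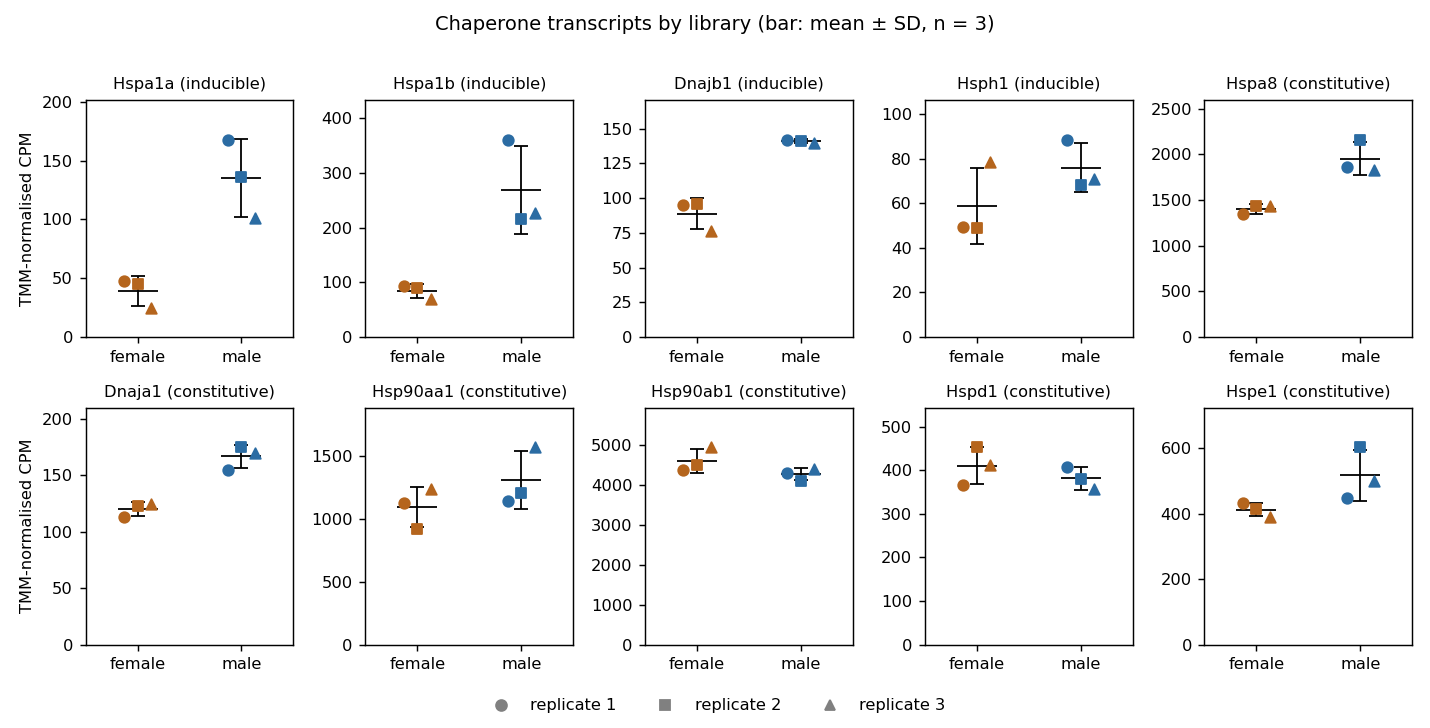
Each panel plots 1 chaperone gene, with TMM-normalised CPM on an axis from 0, female libraries left and male right, a point per library and a bar for mean ± SD (n = 3). The male points of Hspa1a (101 to 168 CPM) lie far above the female ones (24.6 to 47.5 CPM), while those of Hsp90ab1 and Hspd1 overlap.

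Of the partners of HSP70 among the members, Dnajb1 passed the adjusted threshold, and Dnaja1 and Hsph1 did not. Dnajb1, a J-domain protein that starts the HSP70 cycle and is itself heat-inducible, on chromosome 8 (83608193 to 83612653), had 95.03, 95.5 and 76.2 CPM in females and 142, 141 and 140 CPM in males. The male values differed by less than counting error would give (0.839% against 9.73% as coefficients of variation), and no male library overlapped the females. Its log2 fold change was 0.66 ± 0.13. Dnaja1, a J-domain protein treated here as constitutive, had 113, 123 and 125 CPM in females and 155, 175 and 170 CPM in males. The groups again did not overlap, and the log2 fold change was 0.47 ± 0.12. The 3′ end of Dnaja1 (chromosome 4, 40722150 to 40737149) overlaps Smu1 on the other strand by 608 bases, and since it is not given whether counting used strand, reads there cannot be told apart.

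Hsph1, the inducible HSP110 protein that exchanges the nucleotide of HSP70, on chromosome 5 (149614287 to 149636376), had 49.1, 48.8 and 78.5 CPM in females and 88.5, 68.2 and 71.1 CPM in males. The groups overlapped through female replicate 3, which lay above male replicates 2 and 3. The log2 fold change was 0.39 ± 0.19 with all libraries, 0.64 without female replicate 3 and 0.25 without male replicate 1. Hsph1 was thus the inducible member with overlapping groups, and female replicate 3 held the lowest Hspa1a, Hspa1b and Dnajb1 but the highest Hsph1 of the female libraries.

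Hspa8, the constitutive HSP70 and the second most abundant member, on chromosome 9 (40800984 to 40810087), had 1342, 1429 and 1435 CPM in females and 1862, 2160 and 1834 CPM in males. The groups did not overlap, and the log2 fold change was 0.48 ± 0.12. The highest male library was replicate 2, not replicate 1 as for the inducible copies. Hspa1a and Hspa1b together made up 9.46%, 8.62% and 6.14% of the counts of the 3 HSP70 members in females and 22.1%, 14.0% and 15.2% in males. The share was 8.07% ± 1.72 (SD, n = 3) and 17.1% ± 4.36, so constitutive Hspa8 supplied most HSP70 counts in both sexes.

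The HSP90 genes showed smaller differences, in opposite directions. Hsp90ab1, the constitutive cytosolic HSP90 and the most abundant member, on chromosome 17 (45567775 to 45573271), had 4367, 4496 and 4938 CPM in females and 4299, 4096 and 4402 CPM in males, with a log2 fold change of -0.11 ± 0.13. Hsp90aa1, the stress-responsive cytosolic HSP90, on chromosome 12 (110690605 to 110702728), had 1126, 921 and 1236 CPM in females and 1144, 1209 and 1572 CPM in males, with a log2 fold change of 0.26 ± 0.14. Both pairs of groups overlapped. The fold change of Hsp90aa1 was 0.11 without male replicate 3, the library with the most. Its share of the HSP90 counts was 20.5%, 17.0% and 20.02% in females and 21.01%, 22.8% and 26.3% in males, so each male share lay above each female one. The gap between female replicate 1 (interval 19.5% to 21.5%) and male replicate 1 (19.9% to 22.2%) was within counting error.

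The mitochondrial pair, whose genes lie head to head and overlap at their starts, had fold changes of opposite sign. Hspd1, the HSP60 barrel, on chromosome 1 (55077835 to 55088243), had 367, 453 and 413 CPM in females and 409, 379 and 357 CPM in males, with overlapping groups and a log2 fold change of -0.11 ± 0.12. Hspe1, its lid HSP10, on chromosome 1 (55088132 to 55091307), had 432, 415 and 392 CPM in females and 448, 604 and 500.1 CPM in males, without overlap, and a log2 fold change of 0.32 ± 0.13. Male replicate 2 held the highest Hspe1, and without it the fold change was 0.20. The share of Hspe1 in the counts of both was 54.0%, 47.8% and 48.7% in females and 52.3%, 61.4% and 58.4% in males. Male replicate 1 thus lay among the females, and male replicates 2 and 3 above all of them. The parts of male replicate 2's high ribosomal and mitochondrial shares in these values were not tested.

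**Figure D2:**
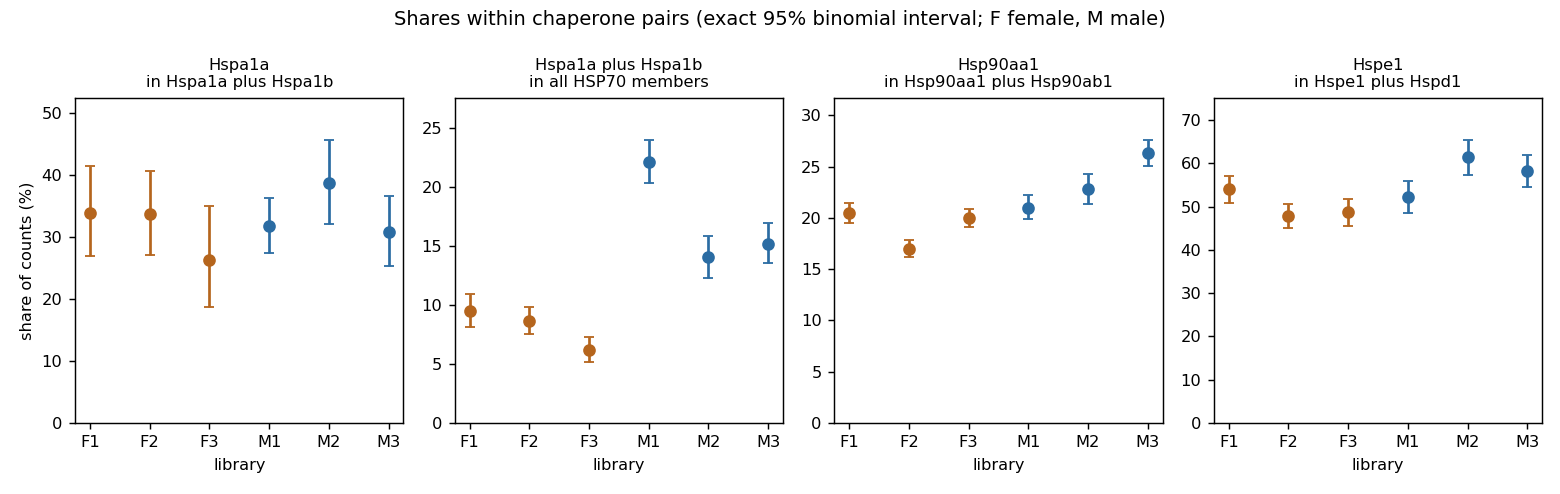
Each panel plots a share of counts in percent (axis from 0) for the 6 libraries, with bars for the exact 95% binomial interval. The inducible share of HSP70 counts is 6.14% to 9.46% in females and 14.0% to 22.1% in males, while the share of Hspa1a within the copies overlaps in all libraries.

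Counted over the members, 3 of 10 (Hspa1a, Hspa1b and Dnajb1) passed the adjusted threshold as higher in males and none as lower, where 0.426% of all tested genes passed as higher. All 3 are among the members treated as inducible. In 6 of the 10 every male library lay above every female one, which held for 7.57% of all tested genes, and in none the reverse. The log2 fold change was above 0 in 8 of 10, as in 49.3% of all tested genes. The median log2 fold change was 1.18 over the 4 inducible members and 0.29 over the 6 constitutive ones, against -0.0030 over all tested genes. Since the members were chosen with this contrast in view, nothing is read from these counts. Without male replicate 1, Hspa8 (which also passed by DESeq2), Dnaja1 and Hspe1 passed as well, making 6 of 10 against 3.75% of all genes. Dnajb1 did not pass without female replicate 3, without male replicate 3, by DESeq2 or when scaled by library size only, with log2 fold changes from 0.57 to 0.67.

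**Figure D3:**
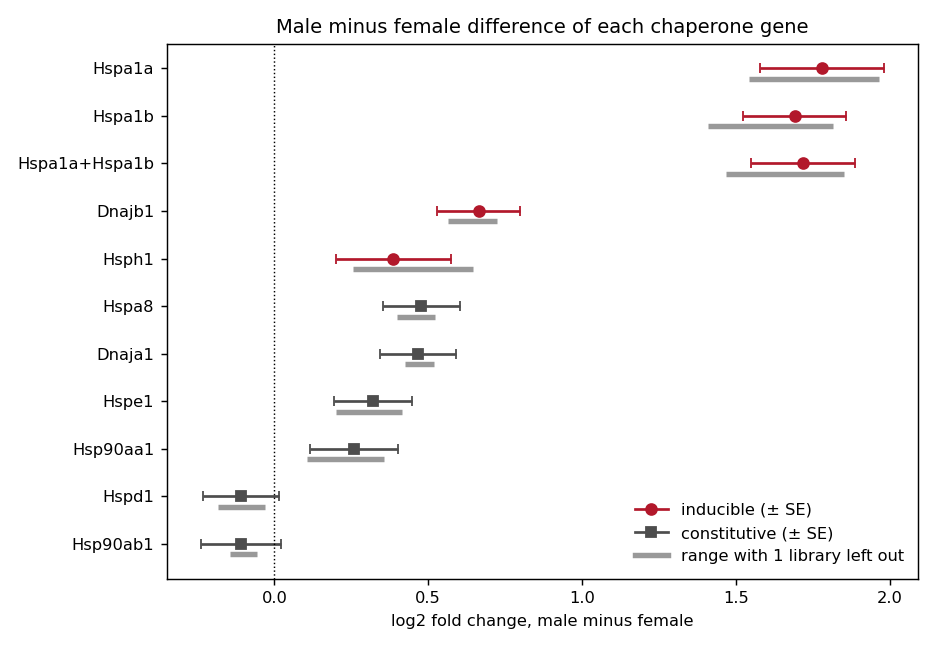
The log2 fold change, male minus female, of each member and of the summed copies is drawn with its SE (circles inducible, squares constitutive), over a grey bar for its range when 1 library is left out. The HSP70 copies lie between 1.41 and 1.96 in all such ranges, Hspd1 and Hsp90ab1 below 0, and all others above 0.

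To set inducible against constitutive members within a library, the mean log2(CPM + 1) of the constitutive members was subtracted from that of the inducible ones, with Hspa1a and Hspa1b as their sum. The difference was -2.998, -3.05 and -3.17 in females and -2.08, -2.52 and -2.51 in males. All male libraries stood above all female ones, and male replicate 1 was the farthest. The means were -3.07 ± 0.09 (SD, n = 3) and -2.37 ± 0.25, which differ by 0.70 on the log2 scale. With Dnajb1 and Hsph1 left out, and so with the HSP70 copies alone, this gap was 1.48. With Hsp90aa1 moved to the inducible side it was 0.54. The inducible members took 3.27% ± 0.385 (SD, n = 3) of the counts of all 10 in females and 6.75% ± 1.41 in males. The 10 genes together took between 0.812% and 0.888% of all counts in females and between 0.812% and 0.930% in males, so the total chaperone share overlapped between the sexes while its inducible part did not.

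In level, Hsp90ab1 stood first and Hspa8 second, both in mean CPM over all libraries (4433 and 1677 CPM) and per kilobase of transcript (1759 and 700.5 CPM per kilobase). Elsewhere the order differed between the scales, because transcripts differ in length (774 bases for Hspe1 and 3281 for Hsp90aa1). Reads from 3′ ends do not grow with transcript length, so the per-kilobase values are given for comparison and not as a measure of level. In CPM, Hsp90aa1 (1201 CPM) stood above Hspe1 (465 CPM), and per kilobase Hspe1 (601) stood above Hsp90aa1 (366). With the sexes pooled, Hsph1 was the lowest on both scales, with 67.4 CPM and 17.7 CPM per kilobase. In each female library, however, Hspa1a had fewer CPM than Hsph1 (means 39.2 and 58.8 CPM), and in each male library more.

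The machinery around these chaperones was then taken from 10 lists of related genes, which share some members and hold 99 genes, 79 of them tested. None of the 79 passed the threshold in either direction in the edgeR quasi-likelihood fit, by DESeq2 or by limma-voom. Without adjustment, 3 of the 79 (Hspb11, Pfdn1 and Pfdn4) had a p below 0.05 in edgeR, 2 in limma-voom and 0 in DESeq2. Of all 8460 tested genes, 959 (11.3%) had such a p in edgeR, 933 in limma-voom and 499 in DESeq2. With 1 library left out, the edgeR count among the 79 ran from 1 (without female replicate 1 or 3) to 10 (without male replicate 1). Over all tested genes it was 748 of 8366 without female replicate 1 and 739 of 8376 without female replicate 3. Without male replicate 1 it was 1480 of 8989. The log2 fold changes of the 79 ran from -0.49 to 0.76 with a median of -0.0046, and 38 of 79 lay above 0. Male libraries lay wholly above female ones in 4 of the 79 and wholly below in 9, against 7.57% and 8.03% of all genes. The 4 include Hspb11, which met the filter on low counts in the male libraries only. Without male replicate 1, the prefoldin genes Pfdn4 and Pfdn5 passed (log2 fold changes 0.68 and 0.44, adjusted p = 0.0316 and 0.0360 in the edgeR quasi-likelihood fit). These are 2 of 79, in a fit where 3.75% of all genes passed as higher.

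Among the transcription factors, Hsf1, the regulator of the heat-shock response, had 52.3, 46.7 and 46.2 CPM in females and 48.9, 51.6 and 39.8 CPM in males, a log2 fold change of -0.06 ± 0.18; it was chosen for its role after the values were seen. Hsf2, a related factor, had -0.18 ± 0.18 and Hsbp1, a small protein that binds heat-shock factor 1, 0.04 ± 0.14. The groups of all 3 overlapped.

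Of 11 tested heat-shock factor 1 targets outside the members, none passed, and the median log2 fold change was 0.07. Bag3, an HSP70 nucleotide exchange factor that is a strong target in heat-shocked cells, had 17.7, 18.3 and 13.9 CPM in females and 10.5, 14.97 and 10.8 CPM in males (log2 fold change -0.49 ± 0.32). Its values overlapped, and its direction was opposite to that of Hspa1a. Stip1, the adaptor that hands clients from HSP70 to HSP90, had 183, 179 and 187 CPM in females and 149, 168 and 148 CPM in males, without overlap (log2 fold change -0.24 ± 0.12, adjusted p = 0.445 in the edgeR quasi-likelihood fit). Ubb, a polyubiquitin gene, had 0.14 ± 0.12.

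None of the HSP70 relatives and co-chaperones passed. The 5 tested relatives lay between -0.18 and 0.0062 on the log2 scale, with Hspa4, a constitutive HSP110, at -0.18 ± 0.12. Of 11 tested J-domain genes, Dnajc2, a ribosome-bound member, had -0.0036 ± 0.13, and Dnajc5, found on vesicles, had -0.28 ± 0.14. St13, which binds HSP70, had 0.01 ± 0.12 among 8 tested regulators of HSP70. Among 12 tested HSP90 co-chaperones the median was 0.0057, and Ptges3, the p23 protein that steadies the closed form of HSP90, had 0.11 ± 0.14.

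Of the small heat-shock proteins, 1 of 10 was tested. Hspb11, which despite its name is a part of the transport machinery of cilia, had 8.86, 6.77 and 8.47 CPM in females and 10.5, 18.3 and 13.3 CPM in males. It did not pass (log2 fold change 0.76 ± 0.36, adjusted p = 0.423 in the edgeR quasi-likelihood fit). It met the filter on low counts in the male libraries only, so nothing is read from its lack of overlap.

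Of 14 tested genes of the chaperonin TRiC and of prefoldin, which fold actin and tubulin, 12 had fold changes above 0, with a median of 0.07. Scaling by library size only put the median of all genes at -0.09, and Cct5 then at -0.04. Pfdn1 had 62.0, 71.1 and 71.6 CPM in females and 82.7, 99.8 and 89.2 CPM in males, without overlap (log2 fold change 0.39 ± 0.15, adjusted p = 0.277 in the edgeR quasi-likelihood fit). Cct5, a TRiC subunit, had 0.07 ± 0.13. Male replicate 2 held the highest Pfdn1 and Cct5, and Cct5 turned to -0.06 without it.

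In organelles, none of 9 tested mitochondrial chaperones and none of 12 tested chaperones of the endoplasmic reticulum passed. Hspa9, the mitochondrial HSP70, had -0.04 ± 0.13, and Grpel1, its nucleotide exchange factor, had 0.26 ± 0.14. Calr, the calcium-binding lectin chaperone, had 2015, 2275 and 2263 CPM in females and 1966, 1907 and 1817 CPM in males, without overlap (log2 fold change -0.20 ± 0.12). Pdia4, a protein disulfide isomerase, had -0.23 ± 0.12. The median of the reticulum list was -0.09, with 3 of 12 above 0.

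**Figure D4:**
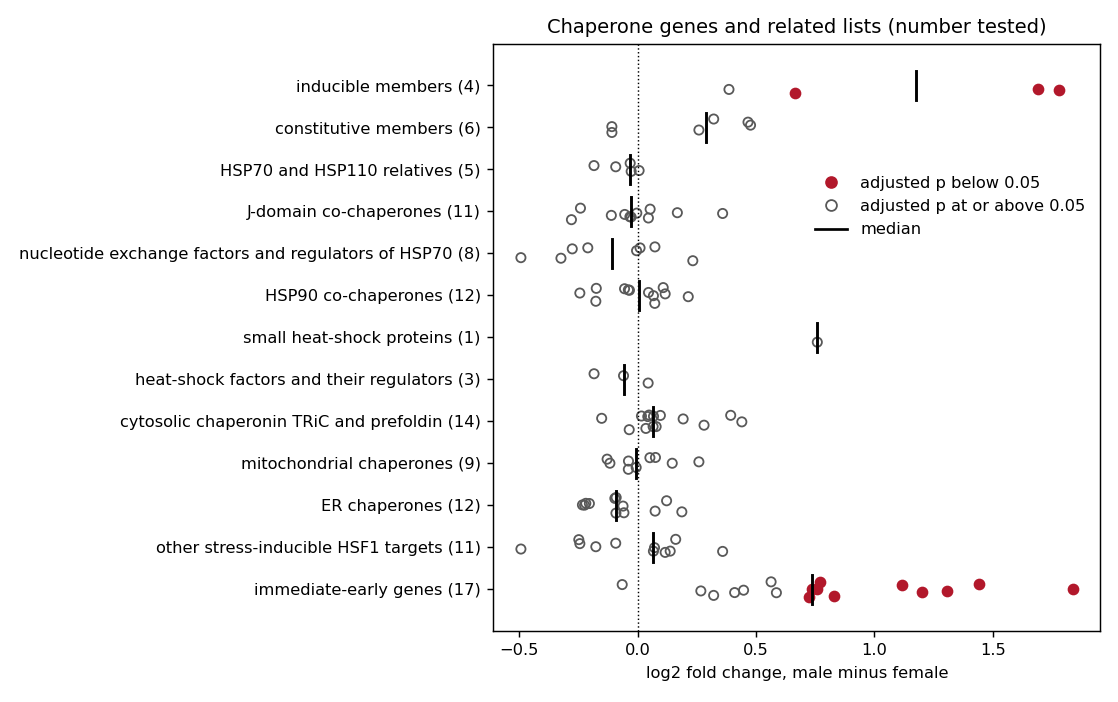
Each point is a tested gene, placed by its log2 fold change, male minus female, in rows for the members and the other lists; filled points passed the adjusted threshold and black bars are medians. Filled points appear only among the inducible members (3 of 4) and the immediate-early genes (10 of 17).

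Immediate-early genes, which any sudden stimulus can switch on within minutes, were higher in the same male libraries. Of 17 tested, 10 rose in males and none fell in the edgeR quasi-likelihood fit, where 0.426% of all tested genes rose and 0.154% fell. The list was chosen with earlier results of these data known, so these counts are a description and nothing is read from them. The 10 were Ier3, Atf3, Egr1, Klf2, Dusp2, Nfkbia, Junb, Fos, Zfp36 and Dusp1, with log2 fold changes from 1.84 (Ier3) to 0.73 (Dusp1). Ier3 had only 7, 13 and 16 counts in the female libraries, and needed the male libraries to pass the filter on low counts. Fos, Nfkbia, Dusp1 and Zfp36 did not pass without male replicate 3, nor Fos, Dusp1 and Zfp36 without female replicate 2, nor Fos and Zfp36 without female replicate 3 (log2 fold changes 0.58 to 0.78), and Zfp36 did not with library size only (0.65). Their 20 genes summed to 4328, 4030 and 3927 CPM in female replicates 1 to 3 and to 6727, 4883 and 6690 CPM in the male ones. In this sum the order of the male libraries differed from that of the summed HSP70 copies. Male replicate 3 was close to replicate 1 (6690 and 6727 CPM) but had the lowest sum of Hspa1a and Hspa1b (329 and 529 CPM). The single genes varied. Among the males, Ier3, Dusp2 and Junb were lowest in replicate 3, as the summed copies were. Atf3, Egr1, Klf2, Nfkbia, Fos, Zfp36 and Dusp1 were lowest in male replicate 2. Handling, time and temperature before lysis are not given in the labels used here, and their part in either list was not tested.

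**Figure D5:**
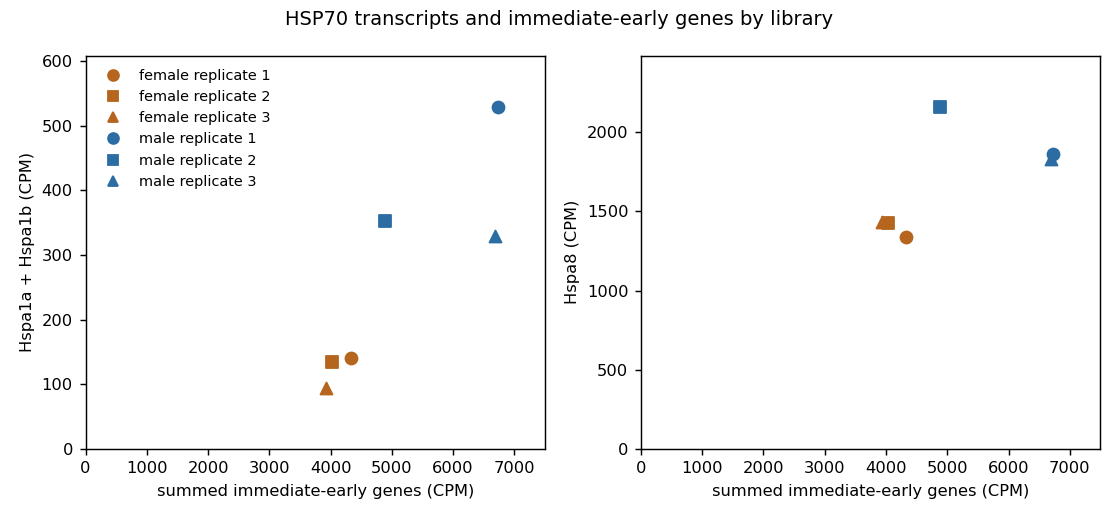
Summed immediate-early genes (x axis, CPM) are plotted against the sum of Hspa1a and Hspa1b (left, CPM) and against Hspa8 (right, CPM), with 1 point per library. Male libraries lie above the females on both y axes, with replicate 1 highest for the inducible copies (529 CPM) and replicate 2 highest for Hspa8 (2160 CPM).

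Sums of cell type markers also differed with sex, and their part in the chaperone values was not tested. Over all tested genes, 0.426% were called higher in males and 0.154% lower. Groups without overlap made up 7.57% (males above) and 8.03% (females above) of single genes. With so few markers tested in each list, nothing is read from the numbers called. The progenitor sum was lower in every male library than in every female one, with none of its 10 genes passing. This sum is weighted to the most abundant genes of the list and does not speak for each of them. Flt3, also in the list, went the other way, with 71.6 to 78.9 CPM in females and 90.4 to 104 CPM in males. The 8 erythroid markers summed to between 178 and 195 CPM in females and between 283 and 422 CPM in males, and 2 of 3 tested rose. The 6 megakaryocyte markers summed to between 25.1 and 31.4 CPM in females and between 39.6 and 113 CPM in males. Only 1 of the 6 passed the filter on low counts, and it was called higher. The 6 markers of mast cells and basophils ran from 77.3 to 96.97 CPM and from 129 to 182 CPM (1 of 3 rose). The 7 plasma cell markers ran from 8389 to 9719 CPM in females and from 6494 to 7531 CPM in males (2 of 7 fell), and the 7 B cell markers from 93.4 to 98.5 CPM and from 64.9 to 73.4 CPM (1 of 2 fell). The 5 T and natural killer cell markers with counts, of 8 listed (Cd3e, Cd8a and Gzma were not analysed here), ran from 129 to 149 CPM and from 153 to 170 CPM, and the 6 stromal and endothelial ones from 123 to 143 CPM and from 152 to 281 CPM, with none passing. The 7 monocyte markers overlapped (4337 to 4911 CPM and 4271 to 4855 CPM).

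The genes whose pattern over the 6 libraries was most like that of summed Hspa1a and Hspa1b were Rbm7 (Pearson r of log2(CPM + 1) 0.988), Flt3 (0.982), Epb41l4aos (0.979), Fmnl3 (0.977) and Rad51c (0.971). These are descriptions over 6 libraries that fall into 2 sexes. Rad51c, with 6.44, 7.45 and 6.93 CPM in females and 17.5, 13.3 and 13.3 CPM in males, met the filter on low counts in the male libraries only. Rbm7, an RNA-binding cofactor of the nuclear exosome, had 118, 116 and 106 CPM in females and 151, 145 and 134 CPM in males, a much smaller difference in the same order. Flt3, a receptor of early progenitors, had 78.9, 75.9 and 71.6 CPM and 104, 99.8 and 90.4 CPM. Among the other members the r with summed Hspa1a and Hspa1b was 0.970 for Dnajb1, 0.861 for Hspa8, 0.838 for Dnaja1, 0.668 for Hspe1, 0.522 for Hsph1, 0.344 for Hsp90aa1, -0.340 for Hspd1 and -0.752 for Hsp90ab1.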

How the data were processed

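Values are unnormalised counts of reads per gene, as the authors deposited them. Per the submitters' processing notes featureCounts 2.0.1, HISAT2 2.2.1, Trim Galore 0.6.7, UMI-tools and DESeq2 were used, with builds GRCm38 and GRCh38 and no stated role. The use of strand and the collapsing of molecular identifiers are not given in the sources used here. PCR copies may remain. All 21606 identifiers matched GENCODE M21 on the same chromosome. Libraries of 1 sex differed beyond counting noise (chi-square per degree of freedom at least 2.05). All 6 libraries shared 1 pool with 10 others not analysed here.

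Genes were kept by filterByExpr with sex as group (minimum count 10, minimum total 15), scaled by TMM and tested, male minus female, with edgeR 4.0.16 in R 4.3.3 (quasi-likelihood F test, no covariate, Benjamini-Hochberg over 8460 genes at 0.05). SEs were derived from the F statistic. The summed copies were fitted in place of both rows. Between 98.0% and 98.3% of counts lay in tested genes. Alternatives were other scalings and filters, DESeq2 1.42.0, limma-voom (limma 3.58.1), a replicate block and leaving out each library. Steps were tested on simulated data.

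Members and lists were chosen with earlier results of these data known. Named are all members, from each other list all genes past the threshold or else the most abundant and the one with the smallest p, and the 5 genes most like Hspa1a plus Hspa1b. Pfdn4, Pfdn5 and Hsf1 were named after their values were seen.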

Additional observations from a re-analysis of the deposited data

How the results depend on the processing

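Depth limits the low genes, such as Hspa1a with 32 to 67 counts in each female library and Hspb11 with 9 to 11 in each library, and 3 libraries per sex limit every comparison. Over 14 or 15 alternatives the log2 fold changes of all 10 members and of the summed copies kept their sign, and Hspa1a and Hspa1b stayed past the threshold in each. Members called higher in males numbered 2 to 6 with 1 library left out. Over all genes, 19 to 337 were called higher and 4 to 78 lower with 1 library left out, the lowest without male replicate 3 and the highest without male replicate 1. There were 81 higher and 35 lower without a filter, 23 lower with library size only, 7 lower by DESeq2 and 8 by limma-voom. The causes of these differences were not tested. The fit without a filter covered 21606 genes in place of 8460. With the replicate number as a block, 56 genes were called higher and 22 lower, and the members called higher were still 3. Same-numbered libraries deviated together only weakly (r = 0.026, 0.0289 and 0.0439), though each correlated best with its own number, so the numbers were not taken as a pairing. The inducible minus constitutive gap of 0.70 was 0.90 with Hspa1a and Hspa1b as separate genes and 1.48 without Dnajb1 and Hsph1, which follows from the weight given to the copies. The gap was 0.54 with Hsp90aa1 counted as inducible. With 1 library left out it ran from 0.56 (without male replicate 1) to 0.78 (without male replicate 2). With the 2-unit element, 6 members in place of 3 held a match.

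Values near 0 changed sign, none of them past the threshold. Dnajc2 was 0.00043 with RLE scaling, 0.0036 with the stricter filter, 0.0010 by DESeq2, 0.011 by limma-voom, 0.0066 with the block, and -0.11 to 0.14 with 1 library left out. St13 was -0.0071 with upper-quartile scaling, -0.077 with library size only, -0.021 without a filter, and -0.073 to 0.090 with 1 library left out. With library size only, Hsbp1 was -0.050 and Cct5 -0.037. With 1 library left out, Hsbp1 ran from -0.062 to 0.17, Cct5 from -0.059 to 0.17, Ptges3 from -0.064 to 0.20 and Hspa9 from -0.12 to 0.058.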
